A study of Mus musculus with 9 samples.

Results

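A set of 10 genes that restrain inflammatory signalling was followed through 3 groups of lung neutrophils: 6 genes of dual-specificity phosphatases (*Dusp1*, *Dusp2*, *Dusp4*, *Dusp5*, *Dusp6* and *Dusp16*) and 4 genes of proteins that promote mRNA decay (*Zfp36*, *Zfp36l1*, *Zfp36l2* and *Zc3h12a*). They were picked by gene symbol, with earlier results of these data known. All 10 were found among the 22064 genes listed, had values and passed the filter on low counts that left 14108 genes for testing. The data came from 9 bulk RNA-seq libraries of female BALB/c mice, 3 in each group. MACRO Ly6Ghigh and MACRO Ly6Glow neutrophils were sorted from lungs at the macrometastatic stage, after 4T1-LM3 cells had been injected orthotopically into the mammary fat pad. The third group, NL, held Ly6Ghigh neutrophils from the lungs of mice for which the labels name no tumor injection. The labels give no age. 4T1-LM3 is a lung-tropic line selected from the mouse mammary carcinoma line 4T1, so that the results are for a single tumor line and mouse strain. All cells were released by enzymatic digestion and sorted by flow cytometry as CD45+ cells by their surface Ly6G. The labels number the libraries as biosamples and do not say whether each came from 1 mouse or from pooled mice, so that p-values measure only the spread between these libraries.

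MAP kinases (ERK, p38 and JNK) carry signals from cytokine, chemokine and pattern-recognition receptors to the nucleus. DUSP phosphatases of the MAP kinase phosphatase family switch them off by removing phosphate from both the threonine and the tyrosine of the activation loop, and several are themselves transcribed on MAP kinase activity, which makes them feedback inhibitors. Proteins of the ZFP36 family bind AU-rich elements in the 3′ UTR (the untranslated end) of cytokine mRNAs and recruit the deadenylation machinery, while Regnase-1, the product of *Zc3h12a*, cuts stem-loops in inflammatory mRNAs. In myeloid cells, both layers are known to limit the output of transcripts such as *Tnf*, *Il1b* and *Cxcl2*.

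Levels between groups are given as CPM, the estimated count relative to the scaled library size (TMM) (a scaling of each library that assumes most genes to be equal between libraries). Levels between genes are given as FPKM, which is scaled for transcript length and for the library total only. A gene counts as called where the adjusted p did not exceed 0.05 (edgeR's quasi-likelihood test, Benjamini-Hochberg over 14108 genes) and the log2 fold change lay beyond 0.58 in either direction, the threshold of the study. Libraries held 15267177 to 17841807 estimated counts. The TMM factors ranged from 0.803 to 1.32, the highest in NL, and therefore FPKM and CPM differed in scale between groups. Neutrophil markers summed to 20353 to 20606 CPM in NL, 71184 to 72990 CPM in MACRO Ly6Ghigh and 77510 to 79388 CPM in Ly6Glow, with none of 10 at 0 in any group. These sums were led by *S100a9* (7563, 31670 and 30620 CPM in the same order) and *S100a8* (4478, 23570 and 22040 CPM). Unlike the other markers of this list, *Hdc* (2078 against 1989 CPM) and *Clec4d* (628 against 426 CPM) were higher in NL than in MACRO Ly6Ghigh. *Ly6g*, which encodes the antigen used for the sort, was at 119 ± 1.40 CPM in NL, 374 ± 10.8 CPM in MACRO Ly6Ghigh and 394 ± 9.32 CPM in Ly6Glow (SD, n = 3). Its RNA was therefore not lower in the libraries labelled Ly6Glow than in those labelled MACRO Ly6Ghigh (log2 difference 0.08 ± 0.03 SE, adjusted p = 0.058), whereas by FPKM it was at 366 ± 7.92 against 409 ± 11.4. The names of these 2 groups thus stand for surface protein.

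Sequences upstream of 3 of the genes are shown because these genes differ in how far they fell or rose between groups and because each carries a motif of a factor that responds to MAP kinase or cAMP signalling. RefSeq promoter windows (GRCm38.p6, from 250 bases before to 50 bases after the gene start) existed for 8 of the 10 genes, with *Dusp4* and *Zfp36l2* not matched. In all, 5 motifs were searched on both strands: the CRE (TGACGTCA), the AP-1 site (TGANTCA), the TATA box (TATAAA), the CArG box of serum response factor and the NF-kB site. The 150 bases before the gene start are printed 5′ to 3′ on the strand of the gene, with the CRE of *Dusp1* (chr17:26508473-26508622, minus strand), the adjacent pair of CArG boxes of *Dusp5* (chr19:53528995-53529144, plus strand) and the CArG box of *Zfp36* (chr7:28379229-28379378, minus strand) in capitals.
Dusp1: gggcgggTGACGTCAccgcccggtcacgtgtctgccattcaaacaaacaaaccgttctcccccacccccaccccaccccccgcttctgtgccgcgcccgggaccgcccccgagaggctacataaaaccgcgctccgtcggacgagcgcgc
Dusp5: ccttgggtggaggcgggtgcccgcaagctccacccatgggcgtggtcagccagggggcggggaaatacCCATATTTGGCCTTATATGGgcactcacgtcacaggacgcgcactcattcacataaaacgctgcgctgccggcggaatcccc
Zfp36: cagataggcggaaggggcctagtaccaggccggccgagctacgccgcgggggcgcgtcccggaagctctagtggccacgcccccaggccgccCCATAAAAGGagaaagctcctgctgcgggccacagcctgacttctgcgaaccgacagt

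The CRE of *Dusp1* began 143 bases before the gene start, the CArG boxes of *Dusp5* 82 and 72 bases before it, and that of *Zfp36* 58 bases before it. *Zfp36l1* had an AP-1 site 129 bases and a TATA box 29 bases before its start, and the other 4 windows held none of the 5 motifs. Among the windows of 11098 tested genes, 3.08% held a CRE, 5.30% an AP-1 site, 1.31% a CArG box, 7.63% a TATA box and 5.13% an NF-kB site. These matches are descriptions of the letters in the window.

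Members of the ZFP36 family are known to bind the heptamer TATTTAT (with U for T in the RNA), and several of their own transcripts carry it. In the GENCODE transcript used for each gene, the heptamer was present in the 3′ UTR of 5 of the 10 genes. *Dusp1*, *Zfp36*, *Zfp36l1* and *Zfp36l2* held 3 copies each and *Dusp2* held 1 copy, while *Dusp4*, *Dusp5*, *Dusp6*, *Dusp16* and *Zc3h12a* held none. Of the 3′ UTRs of 13664 tested genes, 29.9% held at least 1 copy and 3.94% at least 3 copies. Windows of 30 bases around the heptamer (in capitals) are shown for *Zfp36* (chr7:28376958-28376987, minus strand), *Dusp1* (chr17:26506159-26506188, minus strand) and *Zfp36l1* (chr12:80108422-80108451, minus strand), beside those of the inflammatory transcripts *Il1b* (chr2:129364802-129364831, minus strand) and *Cxcl2* (chr5:90905325-90905354, plus strand), whose levels are given further on.
Zfp36: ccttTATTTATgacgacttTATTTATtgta
Dusp1: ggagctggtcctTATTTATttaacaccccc
Zfp36l1: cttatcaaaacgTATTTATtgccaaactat
Il1b: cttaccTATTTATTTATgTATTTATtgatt
Cxcl2: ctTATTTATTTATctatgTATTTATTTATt

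The 10 genes followed 3 patterns over the groups. *Zfp36*, *Zfp36l1* and *Zfp36l2* stepped upward from NL to MACRO Ly6Ghigh to Ly6Glow, on CPM and on FPKM alike. *Dusp1*, *Dusp2*, *Dusp5*, *Dusp6* and *Dusp16* were lowest in MACRO Ly6Ghigh on both scales, and Ly6Glow and NL exchanged places between the scales for all of these but *Dusp5*, which was higher in NL on both. *Dusp4* stepped downward on both scales. By its group means *Zc3h12a* went with *Dusp1*, lowest in MACRO Ly6Ghigh on both scales, highest in Ly6Glow on CPM and highest in NL on FPKM. Its values in NL and MACRO Ly6Ghigh overlapped on CPM.

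**Figure D1:**
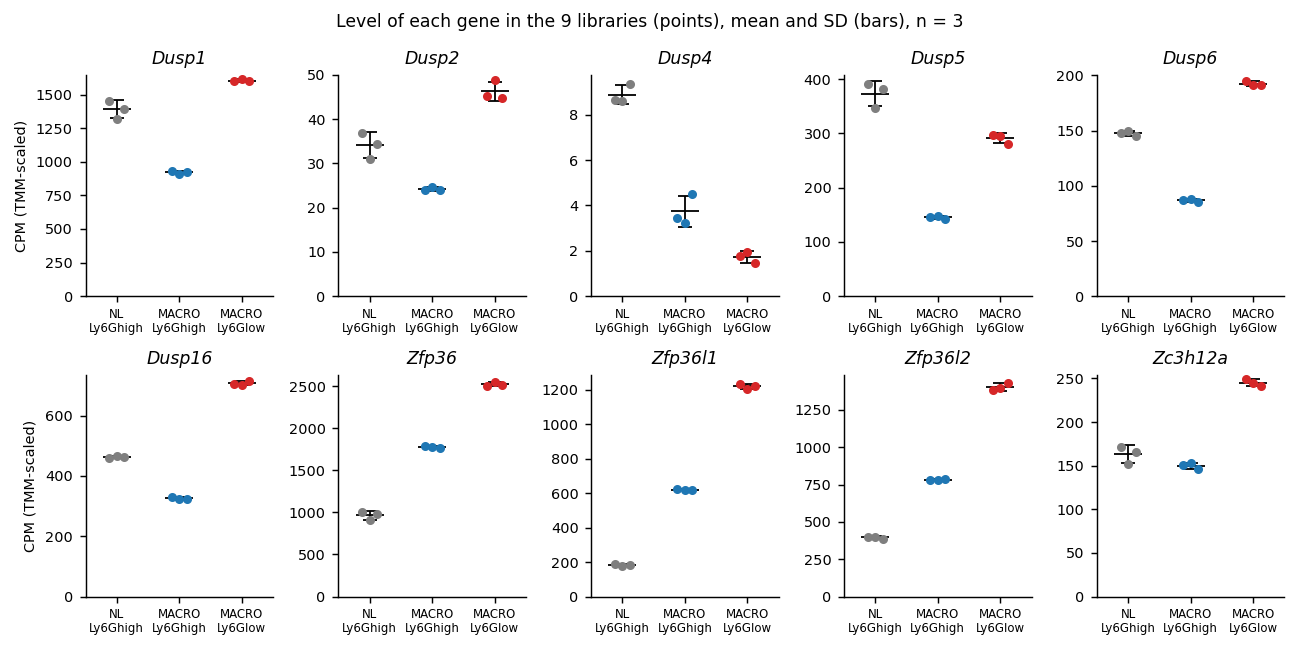
Level of each of the 10 genes in the 9 libraries, in CPM after TMM scaling (y axis, from 0, a separate scale for each gene), by group (x axis). Points are libraries and bars the mean and SD of 3. *Zfp36l1* lies at 175 to 188 CPM in NL, 616 to 623 CPM in MACRO Ly6Ghigh and 1204 to 1231 CPM in Ly6Glow, while *Dusp1* lies lowest in MACRO Ly6Ghigh. By FPKM the order of NL and Ly6Glow is the opposite for *Dusp1*, *Dusp2*, *Dusp6*, *Dusp16* and *Zc3h12a*.

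Among the phosphatases that act mainly in the nucleus, *Dusp1* (chr17:26505591-26508472), an immediate early gene whose product prefers p38 and JNK, was the most abundant. It was at 1453, 1320 and 1395 CPM in NL, 932, 912 and 924 CPM in MACRO Ly6Ghigh, and 1599, 1614 and 1599 CPM in Ly6Glow. The 3 groups did not overlap. *Dusp1* was 1.74-fold higher in Ly6Glow than in MACRO Ly6Ghigh (log2 fold change 0.80 ± 0.03 SE, adjusted p = 6.26e-15), and 1.51-fold lower in MACRO Ly6Ghigh than in NL (log2 fold change -0.59 ± 0.03, adjusted p = 1.56e-13), just past the fold threshold. Without MACRO Ly6Ghigh replicate 2 or NL replicate 1 the latter was -0.579 and -0.560, under the threshold, and the former was 0.56 on log2(FPKM + 1), also under it. Against NL, Ly6Glow differed by 0.21 ± 0.03 on the log2 scale, under the threshold, and by -0.49 on the ratio of mean FPKM.

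*Dusp5* (chr19:53529145-53541809) encodes a nuclear phosphatase specific to ERK. It was at 390, 347 and 382 CPM in NL, 147, 148 and 142 CPM in MACRO Ly6Ghigh, and 297, 296 and 281 CPM in Ly6Glow. NL was the highest group, and MACRO Ly6Ghigh lay lowest without overlap. The gene fell 2.56-fold from NL to MACRO Ly6Ghigh (log2 fold change -1.36 ± 0.04, adjusted p = 6.33e-18), and it was 2.00-fold higher in Ly6Glow than in MACRO Ly6Ghigh (log2 fold change 1.00 ± 0.04, adjusted p = 1.73e-14). Ly6Glow stayed below NL by 0.36 ± 0.04 on the log2 scale, which was not past the fold threshold, and by 1.06 on the ratio of mean FPKM. *Dusp5* was called lower there on log2(FPKM + 1) (-1.05).

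*Dusp2* (chr2:127336159-127338377), whose product is a nuclear phosphatase first described in activated leukocytes, was expressed at a lower level. It was at 36.9, 31.1 and 34.4 CPM in NL, 24.0, 24.8 and 24.0 CPM in MACRO Ly6Ghigh, and 45.2, 48.8 and 44.8 CPM in Ly6Glow. These ranges did not overlap. It was 1.91-fold higher in Ly6Glow than in MACRO Ly6Ghigh (log2 fold change 0.93 ± 0.07, adjusted p = 9.92e-11). The log2 differences from NL, -0.49 ± 0.07 for MACRO Ly6Ghigh and 0.44 ± 0.06 for Ly6Glow, were under the threshold. The former was past it, and *Dusp2* called lower, with upper-quartile scaling (-0.68), among genes with at least 10 counts in every library (-0.66), on log2(FPKM + 1) (-0.91) and on log2(FPKM + 0.1) (-0.95).

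*Dusp4* (chr8:34807610-34819894), another nuclear phosphatase, was the exception among the phosphatases. Its estimated counts were 193, 189 and 208 in NL, 56, 55 and 73 in MACRO Ly6Ghigh, and 22, 26 and 19 in Ly6Glow, so that its error was the widest of the 10 genes. The groups did not overlap, and the order was NL, then MACRO Ly6Ghigh, then Ly6Glow. *Dusp4* was 2.38-fold lower in MACRO Ly6Ghigh than in NL (log2 fold change -1.25 ± 0.13, adjusted p = 7.71e-09). It was a further 2.15-fold lower in Ly6Glow than in MACRO Ly6Ghigh (log2 fold change -1.10 ± 0.19, adjusted p = 4.79e-05), and 5.12-fold lower in Ly6Glow than in NL.

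Beside this, markers of other cell types were higher in NL. Endothelial markers summed to 975 to 1047 CPM in NL, 144 to 148 CPM in MACRO Ly6Ghigh and 177 to 184 CPM in Ly6Glow. Epithelial or tumor markers summed to 928 to 1030 CPM in NL and to 91.2 to 99.3 CPM over both MACRO groups, and fibroblast markers to 518 to 549 CPM in NL and to 49.8 to 57.7 CPM over both MACRO groups. Monocyte or macrophage markers went from 1005 to 1020 CPM in NL to 596 to 609 CPM in MACRO Ly6Ghigh and 505 to 524 CPM in Ly6Glow. Alveolar macrophage markers summed to 1626 to 1653 CPM in NL, 1450 to 1500 CPM in MACRO Ly6Ghigh and 320 to 340 CPM in Ly6Glow. *Chil3* led this sum, at 964, 1274 and 277 CPM in the same order, and *Ear1* was at 40.7, 45.8 and 1.19 CPM. The other markers of this list were lower in MACRO Ly6Ghigh than in NL, such as *Plet1* (63.6 against 246 CPM) and *Car4* (18.6 against 116 CPM). T or NK cell markers summed to 89.2 to 94.0 CPM in NL, 51.5 to 54.7 CPM in MACRO Ly6Ghigh and 36.5 to 38.5 CPM in Ly6Glow. B cell markers stood at 30.5 to 52.1 CPM and eosinophil or basophil markers at 41.7 to 94.3 CPM over the 9 libraries, both highest in MACRO Ly6Ghigh. No marker with values was at 0 in all libraries of a group. In bulk RNA, fewer cells of a type and less RNA per cell cannot be told apart, and the part of these cells in any difference of the 10 genes was not tested.

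**Figure D2:**
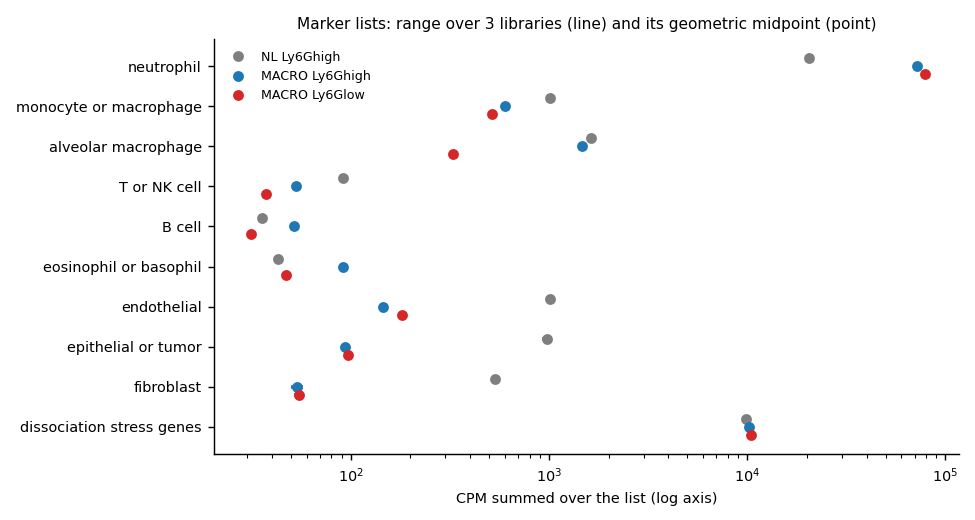
Summed level of 9 marker lists and of dissociation stress genes in CPM (x axis, log scale) for each list (y axis), by group. Lines span the 3 libraries of a group and points are the geometric midpoint of that range. NL lies lowest for the sum of neutrophil markers and highest for the sums of endothelial, epithelial or tumor and fibroblast markers. Dissociation stress genes sum to 9500 to 10761 CPM over the 9 libraries, while single genes of that list moved in both directions.

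Outside the nucleus, *Dusp6* (chr10:99263231-99267489), the gene of a cytoplasmic phosphatase for ERK and a usual readout of ERK activity, was at 148, 150 and 145 CPM in NL, 86.9, 88.0 and 85.4 CPM in MACRO Ly6Ghigh, and 195, 191 and 191 CPM in Ly6Glow. The spread within each group was small against the distance between groups. *Dusp6* had the largest increase of the 10 genes from MACRO Ly6Ghigh to Ly6Glow, 2.22-fold (log2 fold change 1.15 ± 0.04, adjusted p = 1.32e-16). It was 1.70-fold lower in MACRO Ly6Ghigh than in NL (log2 fold change -0.77 ± 0.04, adjusted p = 1.31e-14). Ly6Glow and NL differed by 0.38 ± 0.03 on the log2 scale, and by -0.32 on the ratio of mean FPKM.

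*Dusp16* (chr6:134715468-134807063) encodes a phosphatase for JNK and p38 that shuttles between nucleus and cytoplasm. It was at 461, 467 and 462 CPM in NL, 331, 323 and 324 CPM in MACRO Ly6Ghigh, and 706, 702 and 716 CPM in Ly6Glow. Here Ly6Glow stood above both other groups on CPM. *Dusp16* was 2.17-fold higher in Ly6Glow than in MACRO Ly6Ghigh (log2 fold change 1.12 ± 0.03, adjusted p = 7.07e-18). It was called higher in Ly6Glow than in NL (log2 fold change 0.61 ± 0.03, adjusted p = 1.27e-14), but the ratio of mean FPKM was -0.09 on the log2 scale, and the difference was 0.42 with upper-quartile scaling and 0.43 among genes with at least 10 counts in every library. MACRO Ly6Ghigh differed from NL by -0.51 ± 0.03, under the threshold. *Dusp16* was called lower there with upper-quartile scaling (-0.70), among genes with at least 10 counts in every library (-0.68), on log2(FPKM + 1) (-0.96) and on log2(FPKM + 0.1) (-0.97).

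Of the decay regulators, *Zfp36* (chr7:28376784-28379228), which encodes tristetraprolin (TTP), was the most abundant. It was at 1007, 907 and 980 CPM in NL, 1792, 1776 and 1763 CPM in MACRO Ly6Ghigh, and 2508, 2553 and 2520 CPM in Ly6Glow. Each group lay above the one before it without overlap. The gene was 1.84-fold higher in MACRO Ly6Ghigh than in NL (log2 fold change 0.88 ± 0.03, adjusted p = 1.95e-16) and 2.62-fold higher in Ly6Glow than in NL (log2 fold change 1.39 ± 0.03, adjusted p = 6.13e-20). The difference between Ly6Glow and MACRO Ly6Ghigh was 0.51 ± 0.03 on the log2 scale (adjusted p = 1.57e-11), short of the fold threshold, and *Zfp36* was the only one of the 10 genes not called in that comparison. On log2(FPKM + 1), the difference between MACRO Ly6Ghigh and NL was 0.42, under the threshold.

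*Zfp36l1* (chr12:80107760-80113013), a paralog of *Zfp36* with the same kind of tandem zinc fingers, changed most of the 10 genes against NL on TMM-scaled counts. By the ratio of mean FPKM, *Dusp5* (-1.82 on the log2 scale) and *Dusp4* (-1.71) differed more than *Zfp36l1* (1.30) between MACRO Ly6Ghigh and NL, and *Dusp4* (-3.06) differed more between Ly6Glow and NL. *Zfp36l1* was at 188, 175 and 182 CPM in NL, 623, 620 and 616 CPM in MACRO Ly6Ghigh, and 1231, 1204 and 1220 CPM in Ly6Glow. It rose 3.41-fold from NL to MACRO Ly6Ghigh (log2 fold change 1.77 ± 0.03, adjusted p = 1.02e-21) and was 1.97-fold higher again in Ly6Glow (log2 fold change 0.98 ± 0.03, adjusted p = 1.09e-16). In all, Ly6Glow stood 6.70-fold above NL (log2 fold change 2.74 ± 0.03, adjusted p = 1.35e-24), and the ratio of mean FPKM was 2.04 on the log2 scale.

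*Zfp36l2* (chr17:84183924-84187947), the remaining paralog, moved in the same direction. It was at 400, 401 and 388 CPM in NL, 778, 781 and 785 CPM in MACRO Ly6Ghigh, and 1384, 1396 and 1433 CPM in Ly6Glow. *Zfp36l2* was 1.97-fold higher in MACRO Ly6Ghigh than in NL (log2 fold change 0.98 ± 0.03, adjusted p = 3.47e-18). It was 1.80-fold higher in Ly6Glow than in MACRO Ly6Ghigh (log2 fold change 0.85 ± 0.03, adjusted p = 3.58e-16), and 3.54-fold higher than in NL. On log2(FPKM + 1), the difference between MACRO Ly6Ghigh and NL was 0.51, under the threshold.

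*Zc3h12a* (chr4:125118414-125127881), the gene of the endoribonuclease Regnase-1, differed least of the 10 genes between MACRO Ly6Ghigh and NL on TMM-scaled counts, by -0.12 ± 0.04 on the log2 scale. By the ratio of mean FPKM it differed by -0.59, more than *Zfp36* (0.42) and *Zfp36l2* (0.51), and it was called on log2(FPKM + 0.1). It was at 172, 152 and 166 CPM in NL, 151, 153 and 146 CPM in MACRO Ly6Ghigh, and 249, 245 and 241 CPM in Ly6Glow. The first 2 of these groups overlapped, and Ly6Glow lay above both. *Zc3h12a* was 1.64-fold higher in Ly6Glow than in MACRO Ly6Ghigh (log2 fold change 0.71 ± 0.04, adjusted p = 3.34e-12), and the difference was 0.47 on log2(FPKM + 1), under the threshold. Its difference from NL in Ly6Glow, 0.59 ± 0.04 on the log2 scale (adjusted p = 1.11e-11), was just past the threshold and was -0.11 on the ratio of mean FPKM. It was 0.54 without NL replicate 2, 0.40 with upper-quartile scaling and 0.40 among genes with at least 10 counts in every library, all under the threshold.

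**Figure D3:**
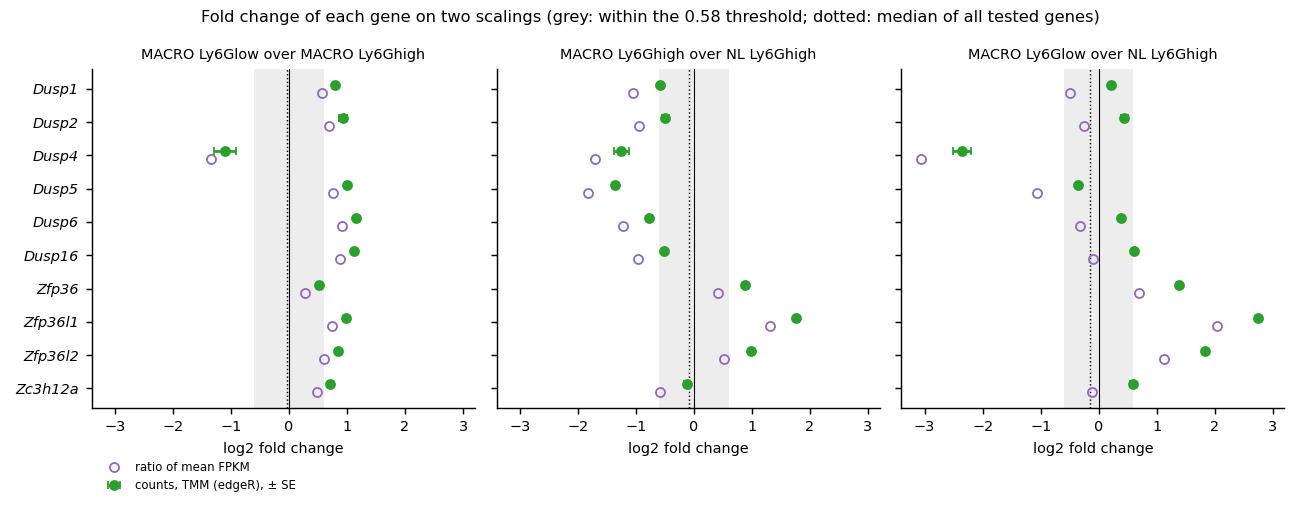
Log2 fold change of each of the 10 genes (x axis) in the 3 comparisons (panels), from the counts with TMM scaling (filled, ± SE of edgeR's fit) and as the ratio of mean FPKM (open). The grey band is the range within the fold threshold of 0.58 and the dotted line the median of all tested genes on the TMM scale. *Zfp36l1* lies highest in both comparisons with NL on both scales, and 5 genes (*Dusp1*, *Dusp2*, *Dusp6*, *Dusp16* and *Zc3h12a*) lie on opposite sides of 0 for Ly6Glow over NL.

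Between Ly6Glow and MACRO Ly6Ghigh, the comparison of both neutrophil subsets within the metastatic lung, 9 of the 10 genes were called, 8 higher and 1 lower, where 25.2% of all tested genes were called, 9.29% higher and 15.9% lower. All 10 genes had groups that did not overlap, as 62.1% of all tested genes had. The median log2 fold change of the 10 genes was 0.89, beside -0.04 over all tested genes. The 5 phosphatase genes that were higher lay between the 93.8th and the 98.1st percentile of all fold changes, and *Zfp36*, *Zfp36l1*, *Zfp36l2* and *Zc3h12a* between the 85.4th and the 96.7th. Because the 10 genes were chosen with earlier results of these data known, these shares and percentiles are descriptions and no test of the set.

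The labels of MACRO Ly6Ghigh and NL differ in the injection of tumor cells as well as in metastasis, so these cannot be told apart. Between these groups of Ly6Ghigh neutrophils, 7 of the 10 genes were called, where 62.9% of all tested genes were called. *Zfp36*, *Zfp36l1* and *Zfp36l2* were higher (26.3% of all tested genes were), and *Dusp1*, *Dusp4*, *Dusp5* and *Dusp6* were lower (36.6% of all tested genes were). Groups did not overlap for 9 of the 10 genes and for 85.2% of all tested genes. Between Ly6Glow and NL, 6 of the 10 genes were called and 69.5% of all tested genes. *Dusp16*, *Zfp36*, *Zfp36l1*, *Zfp36l2* and *Zc3h12a* were higher (28.7% of all tested genes were), *Dusp4* was lower (40.8% were), and groups did not overlap for any of the 10 genes and for 86.8% of all tested genes. The share of the 10 genes called in these comparisons was thus close to that of all genes. These comparisons share libraries with each other, and the libraries of NL stand apart from the others in the markers given above.

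The directions against NL depended on the scale for some genes. The ratio of mean FPKM of the 10 genes was lower than that of CPM by 0.24 on the log2 scale for Ly6Glow over MACRO Ly6Ghigh, by 0.46 for MACRO Ly6Ghigh over NL and by 0.70 for Ly6Glow over NL. The median of all tested genes moved as well, from -0.16 on TMM-scaled counts to -0.49 on log2(FPKM + 1) and to -0.81 on log2(FPKM + 0.1) for Ly6Glow over NL. The share of higher genes among those called went from 36.8% to 14.3% for Ly6Glow over MACRO Ly6Ghigh, from 41.8% to 21.8% for MACRO Ly6Ghigh over NL and from 41.3% to 14.9% for Ly6Glow over NL on log2(FPKM + 1). Relative to the median of all tested genes in the last comparison, *Zfp36l1* stood at 2.90 on TMM-scaled counts and 2.52 on log2(FPKM + 1), *Dusp16* at 0.77 and 0.40, and *Dusp4* at -2.20 and -1.40. *Dusp5* stood at -0.20 and -0.56. For MACRO Ly6Ghigh over NL the medians were -0.09 on TMM-scaled counts and -0.32 on log2(FPKM + 1), and relative to them *Dusp5* stood at -1.27 and -1.48 and *Dusp1* at -0.50 and -0.73. For Ly6Glow over MACRO Ly6Ghigh the medians were -0.04 and -0.13, and relative to them *Dusp6* stood at 1.19 and 1.03.

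Per unit of length, *Zfp36* and *Dusp1* were the leading genes in every group. Mean FPKM of *Dusp1* was 960 ± 36.5 in NL, 462 ± 4.19 in MACRO Ly6Ghigh and 682 ± 1.81 in Ly6Glow, at or above the 99.0th percentile of tested genes (SD, n = 3). *Zfp36* was at 735 ± 32.4 FPKM in NL, 982 ± 5.52 FPKM in MACRO Ly6Ghigh and 1185 ± 8.15 FPKM in Ly6Glow. The leading place therefore passed from *Dusp1* in NL to *Zfp36* in both MACRO groups. The ratio of *Zfp36* to *Dusp1* within a library, which no scaling of libraries can change, was 0.77 ± 0.01 in NL, 2.13 ± 0.02 in MACRO Ly6Ghigh and 1.74 ± 0.01 in Ly6Glow. The ratio of *Zfp36l1* to *Zfp36* was 0.11 ± 0.002 in NL, 0.20 ± 0.0005 in MACRO Ly6Ghigh and 0.28 ± 0.006 in Ly6Glow, and its ranges over the libraries were separate in the 3 groups. The make-up of the ZFP36 family at the level of RNA thus moved towards *Zfp36l1*, which reached 334 ± 4.53 FPKM in Ly6Glow from 81.1 ± 2.14 FPKM in NL, past *Zfp36l2* with 324 ± 6.05 and 149 ± 3.27 FPKM.

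The other genes were spread over a wide range. In NL, *Dusp5* was at 276 ± 14.3 FPKM, *Dusp16* at 120 ± 2.22 FPKM, *Zc3h12a* at 77.5 ± 4.01 FPKM, *Dusp6* at 70.2 ± 1.66 FPKM and *Dusp2* at 28.4 ± 2.15 FPKM. *Dusp4* was the lowest in each group, at 4.89 ± 0.23 FPKM in NL, 1.49 ± 0.28 FPKM in MACRO Ly6Ghigh and 0.59 ± 0.09 FPKM in Ly6Glow. The ratio of *Dusp5* to *Dusp1*, both nuclear phosphatases, was 0.29 ± 0.006 in NL, 0.17 ± 0.005 in MACRO Ly6Ghigh and 0.19 ± 0.006 in Ly6Glow. That of *Dusp16* to *Dusp1* was higher in Ly6Glow (0.16 ± 0.002) than in MACRO Ly6Ghigh (0.13 ± 0.001) and NL (0.12 ± 0.007), and the last 2 groups overlapped.

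**Figure D4:**
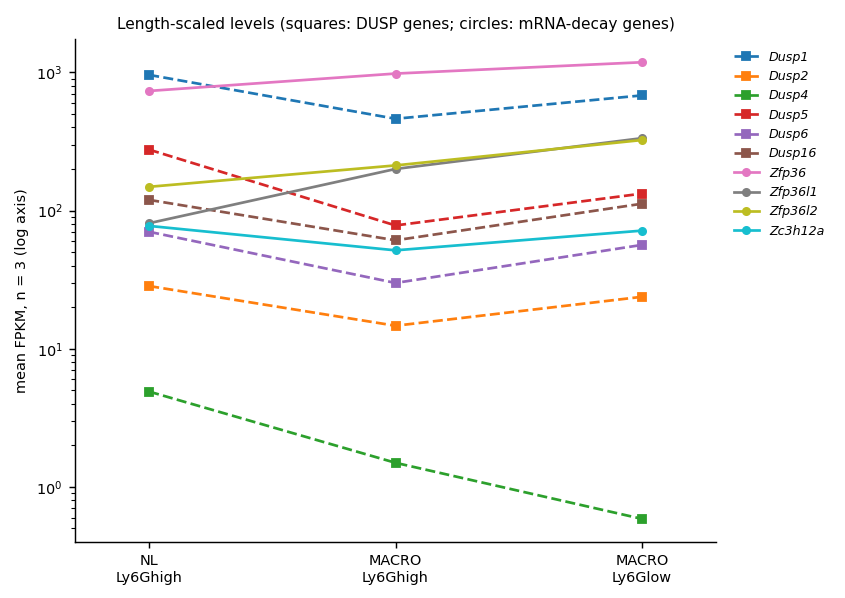
Mean FPKM of each gene over 3 libraries (y axis, log scale) in the 3 groups (x axis), with squares for phosphatase genes and circles for genes of mRNA decay. *Dusp1* is the highest in NL and *Zfp36* the highest in both MACRO groups, and *Dusp4* is the lowest in every group.

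The other genes of these pathways were examined as lists. Of all tested genes, 25.2% were called between Ly6Glow and MACRO Ly6Ghigh. Between MACRO Ly6Ghigh and NL 62.9% were called, and between Ly6Glow and NL 69.5%. The 4 remaining MAP kinase phosphatase genes (*Dusp7*, *Dusp8*, *Dusp9* and *Dusp10*) were all low, and none was called between Ly6Glow and MACRO Ly6Ghigh by edgeR or DESeq2, with 1 of them lower at an unadjusted p under 0.05 in both and 1 called lower on log2(FPKM + 0.1). All 4 were called lower in both MACRO groups than in NL, but without MACRO Ly6Ghigh replicate 3 or NL replicate 1 only 2 of them were called between MACRO Ly6Ghigh and NL. *Dusp8*, for example, was at 15.1 ± 0.70 CPM in NL, 2.13 ± 0.64 CPM in MACRO Ly6Ghigh and 2.16 ± 0.23 CPM in Ly6Glow. Of 9 tested genes of atypical DUSPs, which lack the domain that docks MAP kinases, none was called between Ly6Glow and MACRO Ly6Ghigh by edgeR, with 2 higher and 2 lower at an unadjusted p under 0.05, whereas 1 was called higher by DESeq2 and 1 lower on log2(FPKM + 1). Against NL, 6 were lower in MACRO Ly6Ghigh, and 6 were lower and 1 higher in Ly6Glow. Most of the lower genes had few counts. Among genes with at least 10 counts in every library, 1 was lower in MACRO Ly6Ghigh, and 2 were lower and 1 higher in Ly6Glow. The most abundant of the lower genes, *Dusp3*, was at 71.4 ± 0.13 CPM in NL, 28.1 ± 1.66 CPM in MACRO Ly6Ghigh and 24.9 ± 0.53 CPM in Ly6Glow.

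In the MAP kinase cascade itself, 6 of 29 tested genes were higher and 2 lower in Ly6Glow than in MACRO Ly6Ghigh. These were 27.6% of the list, close to the 25.2% of all tested genes. Among the called genes with a group mean of at least 10 CPM, those with the largest changes were *Braf*, a kinase upstream of ERK (463 ± 28.5 against 252 ± 2.27 CPM), *Map2k3*, an activator of p38 (406 ± 5.06 against 242 ± 3.13 CPM), *Map3k11* and *Map2k4*. On log2(FPKM + 1), 1 was called higher and 2 lower, and on log2(FPKM + 0.1) 1 higher and 5 lower, so that the balance turned. Against NL, 13 were higher and 4 lower in MACRO Ly6Ghigh (58.6% called, beside 62.9% of all tested genes). In Ly6Glow, 17 were higher and 5 lower (75.9%, beside 69.5%). On log2(FPKM + 1) the direction turned, to 5 higher and 8 lower and to 3 higher and 8 lower. *Mapk13*, which encodes the p38 delta isoform, was at 54.5 ± 2.93 CPM in NL, 248 ± 5.39 CPM in MACRO Ly6Ghigh and 264 ± 3.87 CPM in Ly6Glow.

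Among 18 immediate early and ERK feedback genes, 7 were higher and 2 lower in Ly6Glow than in MACRO Ly6Ghigh. These were 50% of the list, beside 25.2% of all tested genes. *Fosl1* was at 109 ± 5.62 against 49.1 ± 1.60 CPM, *Egr3* at 48.2 ± 0.80 against 22.1 ± 1.46 CPM, *Egr1* at 572 ± 10.8 against 298 ± 3.33 CPM and *Ier3* at 741 ± 16.2 against 389 ± 5.64 CPM. The lower genes were *Egr2* (18.4 ± 1.17 against 27.8 ± 0.33 CPM) and *Myc* (3.12 ± 0.17 against 5.42 ± 0.73 CPM). Among ERK feedback genes, *Spry2* was called higher (log2 fold change 0.74), while *Spry1*, *Spry4*, *Spred1*, *Spred2* and *Etv5* were not called. Between MACRO Ly6Ghigh and NL, 14 were lower and 1 higher (83.3% called, beside 62.9% of all tested genes). *Fosb* was at 145 ± 1.40 CPM in MACRO Ly6Ghigh against 697 ± 41.7 CPM in NL. Ly6Glow had 10 lower and 3 higher than NL (72.2%, beside 69.5%). On log2(FPKM + 1) the counts were 4 higher and 2 lower in Ly6Glow than in MACRO Ly6Ghigh (4 higher and 5 lower on log2(FPKM + 0.1), where the balance turned), 14 lower and none higher in MACRO Ly6Ghigh than in NL, and 13 lower and 1 higher in Ly6Glow than in NL. *Spry4*, the gene of a feedback inhibitor of receptor tyrosine kinase signalling, was at 26.5 ± 1.52 CPM in NL, 3.13 ± 0.74 CPM in MACRO Ly6Ghigh and 3.49 ± 0.36 CPM in Ly6Glow. Immediate early genes also respond to tissue dissociation. Of 17 dissociation stress genes, 4 were higher and 5 lower in Ly6Glow than in MACRO Ly6Ghigh, and likewise in MACRO Ly6Ghigh than in NL. In Ly6Glow, 5 were higher and 5 lower than in NL (1 higher and 9 lower on log2(FPKM + 1)). In the same order, 52.9%, 52.9% and 58.8% were called, beside 25.2%, 62.9% and 69.5% of all tested genes. The sum of the 17 genes was 9500 to 10347 CPM in NL, 10176 to 10273 CPM in MACRO Ly6Ghigh and 10216 to 10761 CPM in Ly6Glow. Single genes changed in opposite directions beneath this sum. From NL to MACRO Ly6Ghigh, *Egr1* went from 1134 to 298 CPM and *Hspa1b* from 356 to 1302 CPM. An even sum therefore does not mean equal levels of these genes.

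Of 14 other genes of proteins that bind stem-loops or AU-rich elements, 1 was higher and 1 lower in Ly6Glow than in MACRO Ly6Ghigh. These were 14.3% of the list, beside 25.2% of all tested genes. The higher one was *Arid5a*, whose product stabilises inflammatory mRNAs that Regnase-1 cuts (359 ± 8.55 against 218 ± 3.46 CPM). The lower one was *Zc3h12c*, a paralog of *Zc3h12a* (2.09 ± 0.23 against 8.02 ± 0.26 CPM). It was at 48.2 ± 2.81 CPM in NL, so that *Zc3h12c* was 4.52 lower on the log2 scale in Ly6Glow than in NL, unlike *Zc3h12a*. In the comparisons with NL, 5 were higher and 2 lower in MACRO Ly6Ghigh (50% called, beside 62.9% of all tested genes). In Ly6Glow, 7 were higher and 2 lower (64.3%, beside 69.5%). On log2(FPKM + 1) these counts were 1 of each and 2 of each. On log2(FPKM + 0.1) they were 1 higher and 2 lower, and 2 higher and 3 lower. Among the higher ones on counts was *N4bp1*, which encodes another RNA nuclease (220 ± 2.46 CPM in NL, 395 ± 4.26 CPM in MACRO Ly6Ghigh and 581 ± 8.45 CPM in Ly6Glow).

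The deadenylation and decapping machinery that ZFP36 proteins recruit had 3 of 29 genes higher and 1 lower in Ly6Glow than in MACRO Ly6Ghigh. These were 13.8% of the list, below the 25.2% of all tested genes. The higher ones were *Btg1* (2226 ± 25.9 against 1353 ± 13.3 CPM) and *Btg2* (966 ± 18.8 against 574 ± 7.59 CPM), whose products stimulate deadenylation, and *Ddx6* (1936 ± 49.3 against 1181 ± 6.61 CPM), a helicase of the decapping complex. None of the 29 was called on log2(FPKM + 1), and 3 were lower and none higher on log2(FPKM + 0.1), while the ratios of mean FPKM of *Btg1*, *Btg2* and *Ddx6* were 0.48, 0.52 and 0.49 on the log2 scale. Against NL, 9 were higher and 3 lower in MACRO Ly6Ghigh (41.4% called, beside 62.9% of all tested genes). In Ly6Glow, 14 were higher and 2 lower (55.2%, beside 69.5%). On log2(FPKM + 1) the direction turned, to 3 higher and 5 lower and to 1 higher and 6 lower. *Cnot7*, the gene of a deadenylase subunit, was at 40.2 ± 3.32 CPM in NL, 104 ± 3.91 CPM in MACRO Ly6Ghigh and 110 ± 5.49 CPM in Ly6Glow.

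Transcripts reported as targets of TTP or Regnase-1 were also examined. Of 21 tested, 8 were called higher and none lower in Ly6Glow than in MACRO Ly6Ghigh by edgeR and by DESeq2, with 9 higher and 5 lower at an unadjusted p under 0.05 in edgeR and 9 and 4 in DESeq2. On log2(FPKM + 1), 7 were higher and 4 lower, and on log2(FPKM + 0.1) 7 higher and 6 lower. Called by edgeR were 38.1% of the list, beside 25.2% of all tested genes. The median log2 fold change of the list was -0.02. *Il1b*, the gene of interleukin-1 beta, was at 4105, 4045 and 4130 CPM in NL, 2827, 2833 and 2736 CPM in MACRO Ly6Ghigh, and 6613, 6763 and 6719 CPM in Ly6Glow. *Cxcl2*, the gene of a neutrophil chemoattractant, was at 1931, 2001 and 1856 CPM in NL, 1650, 1667 and 1675 CPM in MACRO Ly6Ghigh, and 3683, 3772 and 4122 CPM in Ly6Glow. Both were lowest in MACRO Ly6Ghigh on CPM and on FPKM, and so were *Ccl4* and *Ptgs2*. The difference between Ly6Glow and MACRO Ly6Ghigh was 1.26 ± 0.03 on the log2 scale for *Il1b* (adjusted p = 1.80e-19) and 1.21 ± 0.04 for *Cxcl2* (adjusted p = 5.11e-17). The 3′ UTR of *Il1b* held 3 copies of the heptamer shown above, that of *Cxcl2* 7, that of *Ptgs2* 6 and that of *Ier3* 4 copies. *Ptgs2* and *Ier3* were called higher as well (log2 fold change 1.28 and 0.93). Other transcripts with several copies were not called. *Tnf*, with 8 copies, differed by 0.36 on the log2 scale, *Cxcl1*, with 6 copies, by -0.04, and *Csf2*, with 9 copies and under 1 CPM in both groups, by -0.43. A relation between copies and fold change was not tested. In the comparisons with NL, 2 were higher and 9 lower in MACRO Ly6Ghigh (52.4% called, beside 62.9% of all tested genes). In Ly6Glow, 7 were higher and 7 lower (66.7%, beside 69.5%). On log2(FPKM + 1) these counts were 1 higher and 12 lower, and 2 higher and 10 lower. *Lcn2* (lipocalin-2, a granule protein) was at 815 ± 38.7 CPM in NL, 5019 ± 149 CPM in MACRO Ly6Ghigh and 3771 ± 130 CPM in Ly6Glow, and *Cxcl1* was at 110 ± 9.54, 38.2 ± 1.72 and 37.1 ± 2.74 CPM in the same order.

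**Figure D5:**
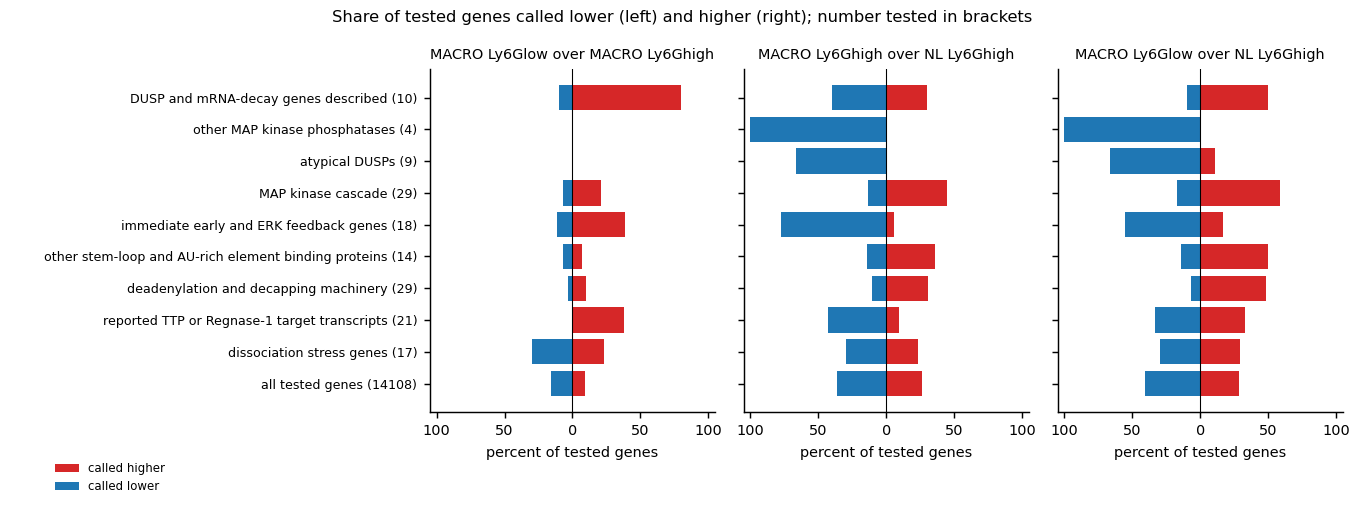
Percent of tested genes called higher (right of 0) and lower (left of 0) in the 3 comparisons (panels), for the 10 genes, the other lists and all tested genes, with the number tested in brackets. In Ly6Glow over MACRO Ly6Ghigh, 8 of the 10 genes and 8 of the 21 reported target transcripts were called higher, beside 9.29% of all tested genes, and no other MAP kinase phosphatase or atypical DUSP gene was called by edgeR (DESeq2 called 1 atypical DUSP gene higher). On log2(FPKM + 1), the lists of the cascade and of the deadenylation machinery turn to more lower than higher genes against NL.

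The genes described here resembled different genes in their pattern over the 9 libraries, measured as the root-mean-square distance between log2 CPM values centred on each gene's mean, over 7389 candidates with a mean of at least 10 CPM. *Zfp36* was nearest to *Zzef1*, *Mcemp1* and *Cdk9* (distance 0.02 to 0.03), and *Zfp36l2* to *Fpr1*, the gene of the formyl peptide receptor, *Sipa1l1* and *Esd* (0.03 to 0.05). *Dusp1* was nearest to *Cyth1*, *Cdc42ep4* and *Relb* (0.03 to 0.05), *Dusp6* to *Tpm4*, *Trem1* and *Nup98* (0.03 to 0.06), and *Dusp16* to *A530064D06Rik*, *Rdh12* and *Gpat3* (0.03 to 0.06). *Dusp5* was nearest to *Maff*, *Fosl1* and *BC049352* (0.06 to 0.08), of which *Fosl1* is also in the list of immediate early genes. *Dusp2* was nearest to *Adam8*, *Slc11a1* and *Irf2bpl* (0.04 to 0.07), *Zc3h12a* to *Actg1*, *Map2k3* and *Samd4b* (0.03 to 0.04), and *Dusp4* to *Sept11*, *Socs2* and *Slc30a1* (0.11 to 0.15). The libraries fall into 3 groups of 3, so that such a distance reflects mainly the 3 group means.

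For 5 of the genes, an annotated gene on the opposite strand overlaps the locus: *Ergic1* for *Dusp1*, *AC137853.2* for *Dusp5*, *Gm44710* for *Zfp36*, *Gm26669* for *Zfp36l1* and *AC132455.1* for *Zfp36l2*. The libraries were made with a kit that marks strand, but whether the counting used strand is not given in the sources used here. The share of overlapping transcripts in the counts of these genes is therefore uncertain.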

How the data were processed

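Neutrophils sorted from lung were profiled by bulk RNA-seq of poly(A)-selected, strand-marked libraries, sequenced by BGI. For each gene and library the authors deposited an estimated count of reads without normalization and an FPKM value scaled for transcript length and library total. The submitters' processing notes name the genome build mm10, and the aligner and counter are not given in the sources used here. Groups came from the sample titles and treatments. The description fields of the NL libraries name only the Ly6Ghigh group, so that the assignment to NL rests on the other fields.

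Of 22064 genes listed, 3739 were blank and 18325 had values. Estimated counts, of which 37.9% were whole, were rounded and fitted in R 4.3.3 with edgeR 4.0.16 (TMM, filterByExpr by group, quasi-likelihood F test, 3 groups and 9 libraries in 1 model, biological coefficient of variation 0.0346). This coefficient is small, and the small p-values rest on it. As pooling of mice is not stated, how much of the difference between mice it holds is unknown. Depth was 15267177 to 17841807 counts per library. DESeq2 1.42.0 and limma 3.58.1 on log2 FPKM served as alternatives, with other scalings, filters, thresholds, a replicate block and each library left out in turn. The fit was tested on simulated data. Promoters came from RefSeq and 3′ UTRs from GENCODE, both for GRCm38, the assembly of mm10.

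The 10 genes and all lists were chosen with earlier results of these data known. Named from each other list were up to 4 called genes with the largest absolute log2 fold change and a group mean of at least 10 CPM, and for each of the 10 genes the 3 nearest in pattern. *Zc3h12c*, *Egr2*, *Myc*, *Spry1*, *Spry2*, *Spry4*, *Spred1*, *Spred2* and *Etv5* between Ly6Glow and MACRO Ly6Ghigh were added after the values were seen. *Dusp9*, and *Tnf*, *Csf2*, *Cxcl1*, *Ptgs2* and *Ier3* beside the heptamer, were added likewise. So were single markers of cell types and group values of named genes outside the comparison that named them. The genes nearest in pattern to *Zfp36l1* are not reported here.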

Additional observations from a re-analysis of the deposited data

How the results depend on the processing

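Over all alternatives, the log2 fold change of *Zfp36l1* ranged from 0.74 to 1.04 for Ly6Glow over MACRO Ly6Ghigh, from 1.29 to 1.79 for MACRO Ly6Ghigh over NL and from 2.03 to 2.83 for Ly6Glow over NL, and that of *Dusp5* for MACRO Ly6Ghigh over NL from -1.82 to -1.33. Of 10 genes, 9 were called for Ly6Glow over MACRO Ly6Ghigh, 7 for MACRO Ly6Ghigh over NL and 6 for Ly6Glow over NL. With a log2 fold threshold of 1 these counts were 4, 3 and 4, beside 9.25%, 42.6% and 50.2% of all tested genes. With no fold threshold they were 10 in each comparison, beside 55.8%, 84.6% and 86.8% of all tested genes. Leaving out each library in turn gave 9 in every case for Ly6Glow over MACRO Ly6Ghigh, 6 to 7 for MACRO Ly6Ghigh over NL (6 without MACRO Ly6Ghigh replicate 2 or NL replicate 1, each for *Dusp1*) and 5 to 6 for Ly6Glow over NL (5 without NL replicate 2, for *Zc3h12a*). The fit without the low-count filter and those with DESeq2's size factors also left *Dusp1* under the threshold for MACRO Ly6Ghigh over NL. On log2(FPKM + 1), *Dusp1* (0.56) and *Zc3h12a* (0.47) fell under it for Ly6Glow over MACRO Ly6Ghigh. For MACRO Ly6Ghigh over NL, *Zfp36* (0.42) and *Zfp36l2* (0.51) fell under it there, while *Dusp2* (-0.91) and *Dusp16* (-0.96) passed it.

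On FPKM, 5 genes reversed for Ly6Glow over NL. With a pseudocount of 1, with or without a minimum of 1 FPKM in 3 libraries, the values were -0.49 for *Dusp1*, -0.25 for *Dusp2*, -0.31 for *Dusp6*, -0.091 for *Dusp16* and -0.11 for *Zc3h12a*. With a pseudocount of 0.1 they were -0.49, -0.26, -0.32, -0.092 and -0.11. Over all genes, the 3560 calls for Ly6Glow over MACRO Ly6Ghigh were 2243 with limma on log2(FPKM + 1), 2223 with the minimum of 1 FPKM in 3 libraries added, 7868 with no fold threshold and 1305 with a log2 fold threshold of 1. Of the alternative counts of called genes in the other lists, 396 stayed within 1.5 times and 60 did not. Among the latter were 8 in each of the 3 FPKM fits, 13 with no fold threshold and 14 with a threshold of 1. This rule takes no account of direction. The deadenylation list for MACRO Ly6Ghigh over NL stayed within it on log2(FPKM + 1), though it went from 9 higher and 3 lower to 3 higher and 5 lower.

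Same-numbered libraries did not deviate together (correlations of deviations from -0.07 to 0.08). The spread within groups was small, so this check cannot tell whether same-numbered libraries came from the same mice. With a replicate block, 9, 7 and 6 of the 10 genes were called, and 3522, 8856 and 9775 of all tested genes in place of 3560, 8874 and 9809.

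Of the 160 alternative fold changes of the 10 genes in each comparison, 154 kept their direction and side of the threshold for Ly6Glow over MACRO Ly6Ghigh, 138 for MACRO Ly6Ghigh over NL and 137 for Ly6Glow over NL. *Dusp4*, with 19 to 26 counts in Ly6Glow, was the least precise gene.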
